A study of Caenorhabditis elegans with 6 samples.

Results

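The kinesin genes of this report are 10 genes that were chosen by name: klp-7, klp-15, klp-16, klp-17, klp-18, klp-19, bmk-1, unc-116, klc-1 and klc-2. They are 10 of the 20240 gene models counted in AB and P1 cells of the 2-cell Caenorhabditis elegans embryo. Of them, 7 encode kinesins of the spindle and 3 encode the chains of kinesin-1, a transport motor. AB is the larger anterior cell of the embryo and P1 is the smaller posterior cell. The embryos came from N2, the wild-type laboratory strain, without any genetic manipulation of either group or any treatment beyond the isolation of the cells. Their eggshells were removed with bleach and with chitinase and chymotrypsin before the cells were pulled apart, and this holds for both cells. Each cell has 3 libraries, replicates 1 to 3, and the paper's text states that every replicate was a pool of matched cells. A library is therefore an average over several embryos, and p-values measure the spread between these pools.

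Kinesins are motor proteins that use ATP to walk along microtubules or to take them apart. Most walk toward the growing plus end, and kinesin-14 motors walk toward the minus end. In C. elegans they build the acentrosomal meiotic spindle of the oocyte, align and separate chromosomes in the mitotic divisions of the embryo, and carry cargo in neurons and in the germ line. The early embryo divides with little transcription of its own, so the RNA in both cells is largely of maternal origin. AB and P1 also divide at different times, AB before P1.

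RNA was amplified before sequencing, an approach called RNA-amp-seq, and reads were counted per gene model. The libraries held 26971551 to 35591254 counted reads in AB and 21249850 to 26237094 in P1, so that 3 reads correspond to 0.0843 to 0.141 CPM, the unit that scales a read count to the total of its library. Values are given below as normalized read counts, which are read counts divided by 1 size factor per library. A read count is a share of its library, so fewer transcripts per cell and a larger share of other transcripts cannot be told apart, and cell size does not enter the values. P1 replicate 1 stood apart from the rest. Its correlation with the other libraries was 0.911 to 0.924 over genes, against 0.951 to 0.980 among the other 5. mex-3, which marks AB, had 60132 to 65459 normalized read counts in AB and 28710 to 35357 in P1, with a log2 fold change of P1 over AB of -0.98 and an adjusted p of 0.0675 in edgeR. pos-1, cey-2 and nos-2, which mark the P1 lineage, had log2 fold changes of 0.18, 0.47 and 0.40 in the same direction as their label, and none of them passed the test. Without P1 replicate 1 their log2 fold changes were -0.03, 0.07 and 0.34 in edgeR, and that of mex-3 was -1.09. A list of 7 genes of later embryonic cells summed to 17.6 to 106 normalized read counts in AB libraries and 0 to 16.3 in P1 libraries, with med-1 and tbx-37 at 0.

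The question put to the kinesin genes was whether the share of their reads differs between AB and P1 libraries. With the quasi-likelihood test of edgeR over 13717 gene models and Benjamini-Hochberg adjustment, 0 of the 10 genes were called at an adjusted p under 0.10, while 48 gene models were called with AB higher and 68 with P1 higher, together 0.846% of those tested. DESeq2 called 0 of the 10 as well. At an unadjusted p under 0.05, 1 of the 9 present kinesin genes passed in edgeR and 1 in DESeq2, and the gene was klc-1 in both. Over all 7945 present genes the share at that level in edgeR was 10.4%, which is close to 1 in 9. A present gene is one with a mean above 10 normalized read counts over the libraries and above 0 in each cell. The absent member was klp-17. The 9 present genes had log2 fold changes of P1 over AB from -0.62 for klc-1 to 0.46 for klp-7, with a median of -0.11, and 6 of them were below 0. The median over all present genes was 0.01.

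**Figure D1:**
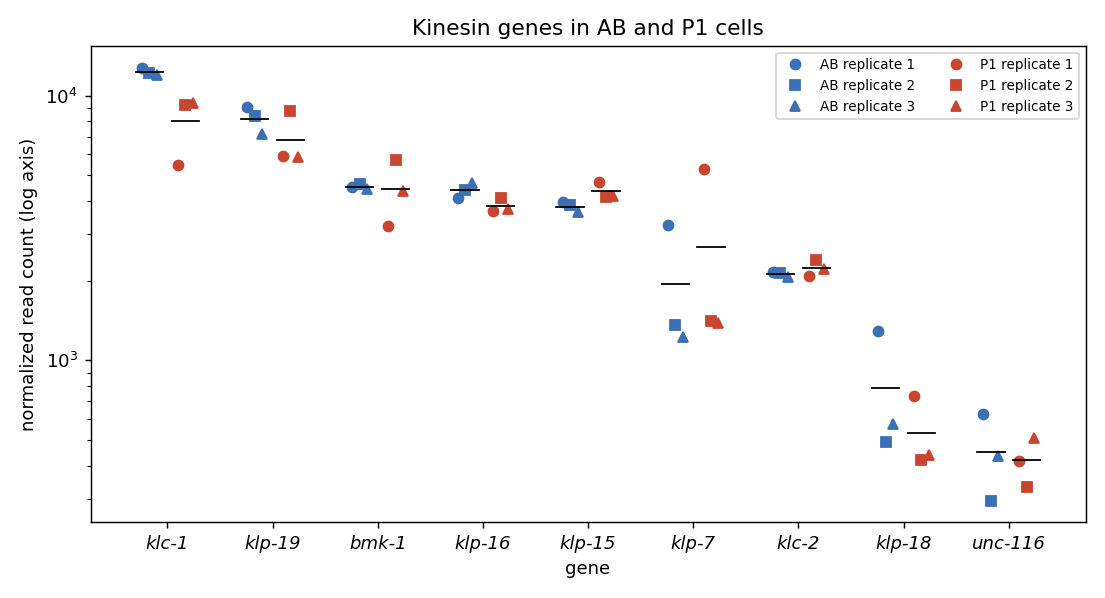
Normalized read counts (log axis) of the 9 present kinesin genes in each library, with AB in blue, P1 in red, the symbol giving the replicate and the line the mean of a cell. klc-1 lies between 11992 and 12766 in AB and between 5460 and 9418 in P1, while the libraries of both cells overlap for 7 of the other 8 genes.

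The level of a kinesin gene was compared with that of others per kilobase of its spliced length, taken from the longest transcript in WBcel235. Whether reads grew in proportion to length in this RNA, amplified from an oligo-dT primer, was not tested. klc-1 stood first with 5767 normalized read counts per kilobase, above 91.1% of present genes with a length. klp-15, klp-16 and klp-19 followed with 2150, 2102 and 2071 per kilobase. The ranges of these 3 genes over the 6 libraries overlapped, from 1913 to 2490 for klp-15, 1867 to 2391 for klp-16 and 1614 to 2492 for klp-19. Their order per kilobase is therefore not resolved. Without division by length, the mean normalized read count was 7502 for klp-19, 4086 for klp-15 and 4121 for klp-16. bmk-1 had 1448 per kilobase, with a range of 1042 to 1848 that reached into that of klp-19. Within every library, however, klp-19 was above bmk-1 per kilobase. klp-7 and klc-2 had 928 and 910 per kilobase, near the median of 831 for all present genes. The range of klc-2, 862 to 999, lay inside that of klp-7, 489 to 2113. klp-18 had 206 per kilobase and unc-116 had 138, again with overlapping ranges of 132 to 406 and 93.2 to 197. klp-17 was last with 0.851. With coding length in place of spliced length, klp-15 and klp-16 exchanged the second and the third place and klp-7 and klc-2 the sixth and the seventh.

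Kinesin-1 is a tetramer of heavy chains, which hold the motor, and light chains, which bind cargo and relieve or keep the inhibition of the heavy chain. In the oocyte the motor acts with the adaptor KCA-1 to move the meiotic spindle to the cortex. klc-1 encodes a light chain. The gene lies on chromosome IV at 11084084 to 11086020 (ce10, plus strand), and its longest transcript has 5 exons and 1765 bases. It had 12766, 12203 and 11992 normalized read counts in AB replicates 1, 2 and 3, and 5460, 9234 and 9418 in P1 replicates 1, 2 and 3. All 3 AB libraries were above all 3 P1 libraries, and P1 replicate 1 was the lowest of the 6. The means were 12321 ± 400 in AB and 8037 ± 2234 in P1 (SD, n = 3 each). The coefficient of variation was 3.24% in AB and 27.8% in P1, beside medians of 15.5% and 29.2% over present genes. The log2 fold change of P1 over AB was -0.62 (SE 0.24, 95% interval -1.12 to -0.12). In edgeR its p was 0.0177 before adjustment and 0.461 after it, so klc-1 was not called. With the replicate number as a block, which compares the AB and P1 libraries of 1 replicate with each other, the log2 fold change was -0.66 and the adjusted p of edgeR 0.463. Within the pairs the log2 ratio was -1.23 in replicate 1, -0.40 in replicate 2 and -0.35 in replicate 3. Replicate 1 carries the larger part of the difference, and without that pair the log2 fold change was -0.38 with an adjusted p of 0.229 in edgeR. Over the alternatives tried it ran from -0.76 to -0.38, with adjusted p-values of 0.147 to 0.878. A complete separation with AB higher was found for 1 of the 9 present kinesin genes and for 8.81% of all present genes.

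klc-2 encodes the other light chain, known for axonal transport and for nuclear migration in the hypodermis. It lies on chromosome V at 5575437 to 5581697 (minus strand), with 6 exons and 2388 bases. Its normalized read counts were 2156, 2137 and 2058 in AB and 2088, 2387 and 2218 in P1. The AB libraries lay close together and overlapped with those of P1. The means were 2117 ± 52.0 in AB and 2231 ± 150 in P1 (SD, n = 3 each). The log2 fold change was 0.07 (SE 0.22, 95% interval -0.38 to 0.52) and the adjusted p of edgeR was 0.939. The 2 light chain genes can be set against each other within a library, where the size factor cancels. The ratio of klc-1 reads to klc-2 reads was 5.92, 5.71 and 5.83 in AB replicates 1 to 3 and 2.61, 3.87 and 4.25 in P1 replicates 1 to 3. The AB ratios lay close together and above all P1 ratios. On the log2 scale the means were 2.54 ± 0.03 in AB and 1.81 ± 0.37 in P1 (SD), a difference of -0.73, with a p of 0.1 in a two-sided exact permutation test. That is the smallest p that 3 libraries against 3 can give, and it is 0.15 after adjustment over the 3 ratios tested. The difference was -1.18, -0.56 and -0.46 within pairs 1, 2 and 3, and an exact sign-flip test of the pairs gave 0.25, again the smallest it can give. Per base of spliced length the ratio was 7.73 to 8.01 in AB and 3.54 to 5.74 in P1.

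unc-116 encodes the heavy chain of kinesin-1. It lies on chromosome III at 8351177 to 8355102 (minus strand), with 8 exons and 3170 bases. It had 625, 296 and 437 normalized read counts in AB and 418, 332 and 511 in P1. The AB libraries alone spanned more than the P1 libraries did, and the 2 groups overlapped. The means were 453 ± 165 in AB and 421 ± 89.3 in P1 (SD, n = 3 each), and the log2 fold change was -0.11 (SE 0.33, 95% interval -0.79 to 0.58) with an adjusted p of 0.938 in edgeR. Within pairs the log2 ratio was -0.58, 0.17 and 0.22, below 0 in replicate 1 only. The log2 fold change turned to 0.17 without AB replicate 1 and to 0.004 without P1 replicate 2. It stayed below 0 without any other single library, at -0.13 without P1 replicate 1. The share of heavy to light chain reads, unc-116 over the sum of klc-1 and klc-2, was 0.0419, 0.0206 and 0.0311 in AB and 0.0554, 0.0286 and 0.0439 in P1. It was higher in P1 in every pair, by 0.40, 0.47 and 0.50 on the log2 scale, although the libraries of both cells overlapped when unpaired. The mean difference was 0.46, with a p of 0.4 in the exact permutation test and of 0.25 in the exact sign-flip test of the pairs, which is the smallest for 3 pairs. The denominator is mostly klc-1, so this ratio and that of the light chains are not independent.

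**Figure D2:**
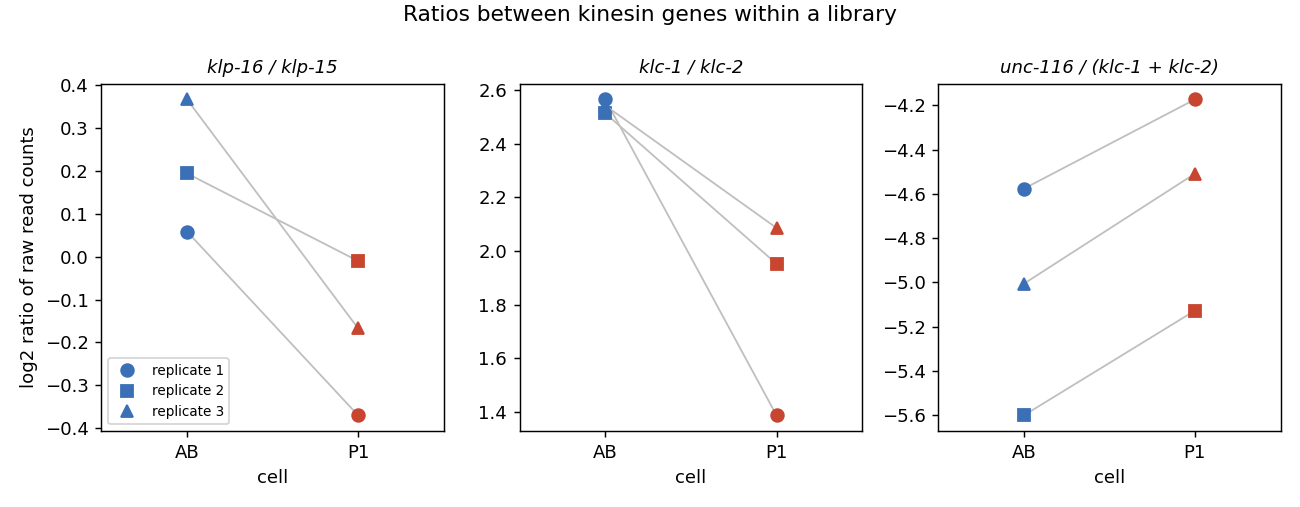
Log2 ratios of raw read counts between kinesin genes within each library, for klp-16 over klp-15, klc-1 over klc-2 and unc-116 over both light chains, with AB on the left, P1 on the right and a line joining the cells of 1 replicate. The first and the second ratio are lower in all P1 libraries than in all AB libraries, and the third is higher in P1 in each of the 3 pairs while the groups overlap.

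Kinesin-14 motors walk to the minus end and focus microtubules at spindle poles. klp-15 and klp-16 are a pair of nearly identical genes of this family with overlapping functions, needed for assembly of the meiotic spindle. klp-15 lies on chromosome I at 5577058 to 5579302 (minus strand) and klp-16 on the same chromosome at 9512444 to 9514747 (plus strand). Both have 4 exons and a coding length of 1761 bases. klp-15 had 3953, 3850 and 3635 normalized read counts in AB and 4732, 4150 and 4194 in P1. All P1 libraries were above all AB libraries, a separation that 7.1% of present genes showed with P1 higher. The means were 3813 ± 162 and 4359 ± 324 (SD, n = 3 each), and the log2 fold change was 0.19 (SE 0.22, 95% interval -0.26 to 0.63), with an adjusted p of 0.772 in edgeR. Within pairs the log2 ratio was 0.26, 0.11 and 0.21. klp-16 had 4117, 4405 and 4688 in AB and 3660, 4121 and 3734 in P1. Here AB was higher in each pair, by log2 ratios of -0.17, -0.10 and -0.33, and the groups overlapped by a single crossing of AB replicate 1 with P1 replicate 2. The means were 4404 ± 285 and 3839 ± 247 (SD, n = 3 each), with a log2 fold change of -0.20 (SE 0.22, 95% interval -0.65 to 0.24) and an adjusted p of 0.760 in edgeR. Neither gene was called.

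The ratio of klp-16 to klp-15 reads was 1.04, 1.14 and 1.29 in AB replicates 1 to 3 and 0.774, 0.993 and 0.890 in P1 replicates 1 to 3. klp-16 thus had more reads than its paralog in every AB library and fewer in every P1 library. On the log2 scale the means were 0.21 ± 0.15 and -0.18 ± 0.18 (SD), a difference of -0.39. The two-sided exact permutation test gave a p of 0.1, the smallest possible, which is 0.15 after adjustment over the 3 ratios. The differences within pairs were -0.43, -0.20 and -0.53. How reads that fit both genes were assigned is not given in the sources used here, so the separate counts are uncertain. When the reads of both genes were added up, the log2 fold change was -0.01 (SE 0.22, 95% interval -0.46 to 0.44), with an adjusted p of 0.990 in edgeR.

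klp-17 encodes a further kinesin-14. It lies on chromosome II at 11464830 to 11469560 (minus strand). It had 1, 9 and 0 reads in AB replicates 1, 2 and 3 and 0 reads in each P1 library, where 0 reads allow up to 0.114 to 0.141 CPM. This limit covers counting error only. The gene was below the level of a present gene, its fitted fold change is not given because all P1 libraries were at 0, and 1 AB library held 9 of its 10 reads. Its model overlaps those of rga-1, on the opposite strand, and of W02B12.15, which had 1743 and 21624 reads over the 6 libraries. Whether reads were assigned by strand is not given in the sources used here.

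klp-19 and bmk-1 encode motors of the mitotic and meiotic spindle. KLP-19 is a kinesin-4 on chromosomes that pushes them toward the spindle equator, and its gene lies on chromosome III at 13299274 to 13307158 (minus strand), with 7 exons and 3623 bases. It had 9030, 8348 and 7162 normalized read counts in AB and 5899, 8724 and 5847 in P1. P1 replicates 1 and 3 lay below all AB libraries and P1 replicate 2 lay among them. The means were 8180 ± 945 and 6824 ± 1646 (SD, n = 3 each), and the log2 fold change was -0.27 (SE 0.24, 95% interval -0.75 to 0.22) with an adjusted p of 0.746 in edgeR. Its ratios within pairs were -0.61, 0.06 and -0.29 on the log2 scale. The model of Y43F4B.5, with 19139 reads over the libraries, overlaps that of klp-19, and 2 further models of the files that overlap it had 0 reads.

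BMK-1 is the only kinesin-5 of C. elegans and slides antiparallel microtubules of the spindle, where it slows the separation of poles. The gene lies on chromosome V at 14453295 to 14456875 (minus strand), with 9 exons and 3097 bases. It had 4508, 4634 and 4436 normalized read counts in AB and 3227, 5724 and 4381 in P1. P1 replicate 1 was the lowest and P1 replicate 2 the highest of all libraries, so that the AB values lay inside the P1 range. The means were close, 4526 ± 99.8 and 4444 ± 1250 (SD, n = 3 each), and the coefficients of variation were 2.21% and 28.1%. The log2 fold change was -0.03 (SE 0.24, 95% interval -0.51 to 0.45) and the adjusted p of edgeR 0.976. Within pairs the log2 ratio was -0.48, 0.30 and -0.02.

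klp-7 and klp-18 had higher coefficients of variation in each cell than the other present spindle kinesin genes. KLP-7 is a kinesin-13, related to the MCAK of vertebrates, that takes microtubules apart at their ends. Its gene lies on chromosome III at 10805831 to 10810900 (plus strand), with 7 exons and 2498 bases. It had 3249, 1356 and 1223 normalized read counts in AB and 5279, 1409 and 1388 in P1. Replicate 1 was far above the others in both cells, and P1 was above AB within every pair, with log2 ratios of 0.70, 0.05 and 0.18. The means were 1942 ± 1133 and 2692 ± 2241 (SD, n = 3 each), with coefficients of variation of 58.3% and 83.2%. The log2 fold change was 0.46 (SE 0.38, 95% interval -0.31 to 1.24) with an adjusted p of 0.713 in edgeR, and 0.31 with an adjusted p of 0.921 with the replicate block. Without P1 replicate 1 the log2 fold change turned to -0.49 with an adjusted p of 0.154 in edgeR, and without AB replicate 1 it was 1.03. Without the whole of replicate 1 it was 0.11.

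KLP-18 is a kinesin-12 that sorts microtubules into a bipolar array in the meiotic spindle of the oocyte. Its gene lies on chromosome IV at 7040200 to 7043683 (plus strand), with 7 exons and 3197 bases. It had 1297, 491 and 576 normalized read counts in AB and 733, 421 and 438 in P1. AB replicate 1 was the highest library, P1 was below AB within every pair, and the groups overlapped. The means were 788 ± 443 and 531 ± 176 (SD, n = 3 each), with a log2 fold change of -0.57 (SE 0.34, 95% interval -1.27 to 0.12) and an adjusted p of 0.686 in edgeR. Within pairs the log2 ratio was -0.82, -0.22 and -0.39. klp-18 was called with AB higher when P1 replicate 1 was left out, at a log2 fold change of -0.90 and an adjusted p of 0.0139 in edgeR. Of all gene models, 2.05% were called with AB higher in that fit. The comparison then sets AB replicate 1 against no partner. Without AB replicate 1 the log2 fold change was -0.04, with an adjusted p of 0.997, and without the pair it was -0.32. Replicate 1 also held most reads of vit-2 and vit-6, yolk protein genes of the maternal intestine. The list of maternal body and gamete genes, of which 5 of 6 were found, summed to 234.5 and 255 normalized read counts in AB and P1 of replicate 1, against 0.972 to 53.7 in the other 4 libraries, with msp-3 and msp-142 at 0. The part of this in the values of klp-7 and klp-18 was not tested.

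**Figure D3:**
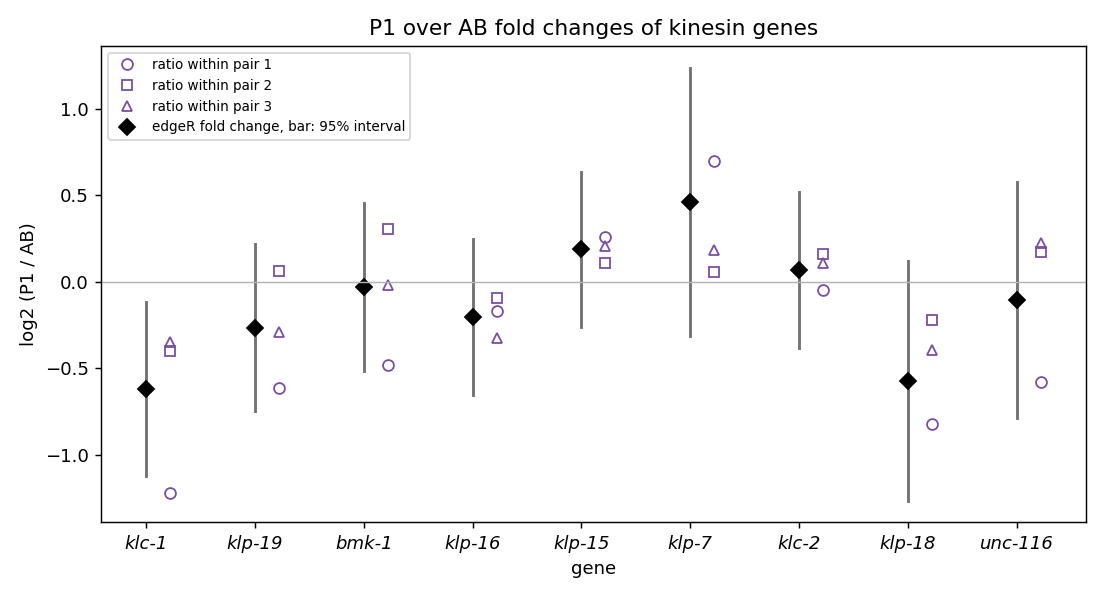
Log2 fold changes of P1 over AB from edgeR (diamonds, with 95% intervals as bars) and log2 ratios within pairs 1 to 3 (open circles, squares and triangles) for the 9 present kinesin genes. The interval of klc-1, -1.12 to -0.12, is the single one of the 9 that leaves out 0.

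Over the pairs, 3 of the 9 present genes, klp-16, klp-18 and klc-1, were higher in AB in all 3, and 2, klp-7 and klp-15, were higher in P1 in all 3. Among all present genes the shares were 21.4% and 19.1%. klp-19, bmk-1, unc-116 and klc-2 had mixed directions. Leaving out 1 library at a time changed the direction of klp-7, bmk-1, unc-116 and klc-2. The direction of klp-15, klp-16, klp-18, klp-19 and klc-1 stayed as it was. For klp-15 and klc-1 the AB and P1 libraries do not overlap, so leaving out 1 library could hardly turn them.

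**Figure D4:**
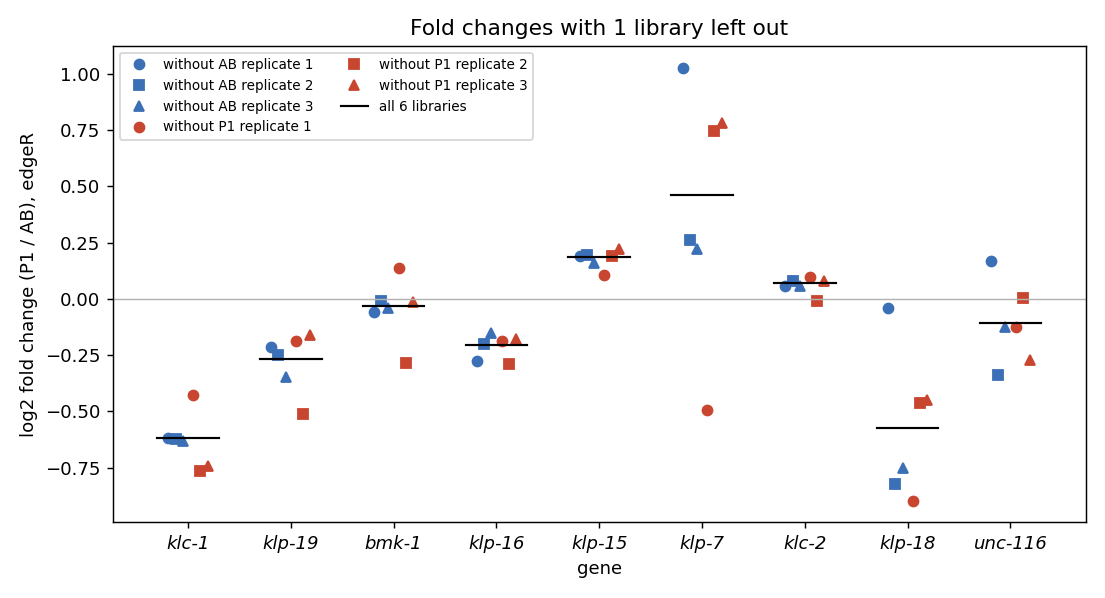
Log2 fold changes of P1 over AB from edgeR when 1 of the 6 libraries was left out, by gene, with blue for an omitted AB library, red for an omitted P1 library and a line for all 6 libraries. klp-7 moves between -0.49 and 1.03 and klp-18 between -0.90 and -0.04, while klp-15 stays between 0.11 and 0.22.

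In pair 1 the ratio of P1 to AB followed transcript length over all genes. Spearman's rho between spliced length and the log2 ratio, over 7806 present genes of the same libraries, was -0.52 in pair 1, -0.04 in pair 2 and 0.04 in pair 3. Split into 3 classes of like size at 1192 and 1993 bases, the median log2 ratio of pair 1 was 0.61 for short, -0.08 for middle and -0.64 for long transcripts, and it stayed between -0.02 and 0.02 in the other pairs. Of the 9 present kinesin genes, 0 were short, 3 were of middle length (klc-1, klp-15 and klp-16) and 6 were long. In pair 1, bmk-1, unc-116 and klp-19 had log2 ratios of -0.48, -0.58 and -0.61, near the median of their class, and klp-18 had -0.82. klp-7 was above it, at 0.70 against -0.64, and klc-2 too, at -0.05. klc-1 was below the median of its class, at -1.23 against -0.08. The part of this length pattern in the fold changes of the long genes was not tested, and the values of pairs 2 and 3 are those without it.

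**Figure D5:**
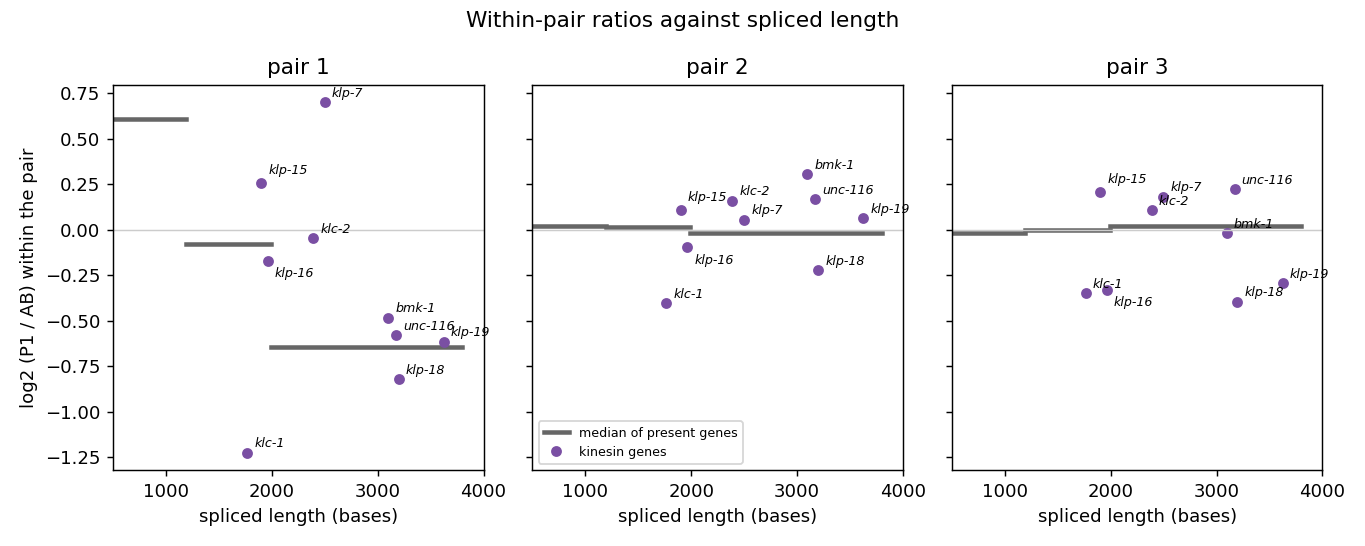
Log2 ratio of P1 to AB within pairs 1, 2 and 3 against spliced length in bases, with kinesin genes as points and the medians of present genes in 3 classes of length as bars. In pair 1 the bars step down from 0.61 to -0.64 and klc-1 and klp-7 stand away from theirs, while in pairs 2 and 3 the bars lie within 0.02 of 0.

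Taken as sums, the reads of the 7 spindle kinesin genes made up 939, 876 and 841 CPM in AB replicates 1 to 3 and 816, 907 and 784 CPM in P1 replicates 1 to 3. These sums overlapped between the cells. The 3 kinesin-1 genes made up 558, 555 and 561 CPM in AB and 276, 441 and 477 CPM in P1, where the AB sums were all above the P1 sums. Most of these reads belong to klc-1. All 10 genes held 1402 to 1496 CPM in AB and 1092 to 1348 CPM in P1.

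A list of the other kinesin genes gave counts of the same order. Of its 14 genes 13 were found, 9 were present, and 0 were called in edgeR. Among the 9, 6 had a log2 fold change below 0, and the median was -0.21. klp-20, a motor subunit of the heterotrimeric kinesin-II of cilia, was the single gene with an unadjusted p under 0.05 in edgeR. Of all present genes, 10.4% were at that level. klp-20 had 127, 224 and 219 normalized read counts in AB and 414, 291 and 375 in P1. All P1 libraries were above all AB libraries, as for 7.1% of present genes. The log2 fold change of klp-20 was 0.91 (SE 0.37) and its adjusted p 0.487 in edgeR. In the other direction klp-3, a kinesin-14, had the smallest p, with a log2 fold change of -0.61 and an adjusted p of 0.704 in edgeR. kap-1 was not analysed here.

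Genes that work with kinesins were taken as a second list of 18, which holds kinesin-1 adaptors such as kca-1 and unc-16, the chromosomal passenger genes air-2, icp-1, bir-1 and csc-1, and spindle pole genes. All 18 were present, 0 were called in edgeR, and 9 lay on each side of 0 with a median of -0.00. aspm-1, which acts at spindle poles, was the single one with an unadjusted p under 0.05 in edgeR, beside 10.4% of all present genes. aspm-1 had 4126, 4311 and 3288 normalized read counts in AB and 1613, 3017 and 2583 in P1. The AB libraries were all above the P1 libraries, as for 8.81% of present genes. The log2 fold change of aspm-1 was -0.70 (SE 0.25) and its adjusted p 0.326 in edgeR. On the other side tac-1, of the centrosomal TAC-1 and ZYG-9 complex, had a log2 fold change of 0.55 and an adjusted p of 0.659 in edgeR. Its normalized read counts were 3224, 3156 and 4550 in AB and 8730, 3299 and 4109 in P1. Without P1 replicate 1 the log2 fold change was -0.002 for tac-1 and -0.50 for aspm-1. kca-1, the adaptor of kinesin-1 in the oocyte, had 1714, 1302 and 1463 in AB and 2346, 1374 and 1560 in P1. This gene was higher in P1 in each pair, as were 19.1% of all present genes. Its log2 fold change was 0.23 (SE 0.25) with an adjusted p of 0.764 in edgeR, and -0.05 without P1 replicate 1.

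The genes whose pattern was most like that of klc-1 were F33G12.3, npp-14 and pnk-1, each with a Pearson r of 0.996 of log2(normalized read count + 1) over the 6 libraries. npp-14 encodes a nucleoporin and pnk-1 a pantothenate kinase. Of the 7944 present genes compared, 17 had an r above 0.99. F33G12.3 had 3526, 3336 and 3463 normalized read counts in AB and 1287, 2569 and 2450 in P1. Its lowest value, in P1 replicate 1, follows from its choice by likeness to klc-1 over these libraries.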

How the data were processed

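RNA of pooled AB and P1 cells was amplified by in vitro transcription from an oligo-dT primer and sequenced. The authors filtered reads with Tagdust, aligned them to ce10 with TopHat 1.4.0 and counted them per RefSeq gene model (WS220) with HTSeq 0.5.3. They deposited raw read counts and a signal, the normalized read counts, in which each library was divided by 1 DESeq 1.2.1 size factor. Which sequencer and read length belong to which library, strand use and the treatment of multiply aligned reads are not given in the sources used here. Depth was 21249850 to 35591254 counted reads per library.

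Raw counts were tested with edgeR 4.0.16 in R 4.3.3 (glmQLFit, glmQLFTest, TMM) without a block. The 13717 gene models that had 1 read or more entered the fit, and p-values were adjusted over them by the Benjamini-Hochberg method. Present genes with an adjusted p under 0.10 were called. Fold changes of edgeR are given as it reports them, slightly shrunk toward 0. Their SE and 95% intervals come from the unshrunk coefficients. Ratios between genes used raw counts with a two-sided exact permutation test in scipy 1.17.1 (Python 3.11.15). The exact sign-flip test ran over all sign patterns of the pairs with numpy 2.4.6. Ratios within pairs used normalized read counts with a pseudocount of 1. Figures were drawn with matplotlib 3.10.9. As alternatives served DESeq2 1.42.0, size factors by the median of ratios, fits with only present genes or filterByExpr, a threshold of 0.05, the replicate block, omission of each library and pair, other pseudocounts, coding length, and summed reads of klp-15 and klp-16. The edgeR script was tested on simulated counts.

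The pairing of same-numbered libraries comes from the paper, which says that matched cells were pooled. Deviations from the cell means correlated at 0.175, 0.22 and 0.173 for libraries of the same number and at -0.219 to 0.0797 for different numbers. Spliced and coding lengths come from WBcel235 by WormBase identifier, and 98.3% of present genes had one. Coordinates are those of the files in ce10. In the files 486 models had no public name and are called by their RefSeq name.

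The 10 members and the lists of other kinesins, partners and markers were chosen with earlier results of these data known. All members are named. From a list the called genes are named or, where there are none, the gene with the smallest p in each direction, and klc-1, the member with the smallest p, gave the 3 genes of most similar pattern. kca-1 was named after its values were seen. unc-54 and kap-1 were not analysed here, and no sequences are shown.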

Additional observations from a re-analysis of the deposited data

How the results depend on the processing

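The number of kinesin genes called was 0 under every alternative that kept all libraries, and 0 to 1 when a library or a pair was left out, the 1 being klp-18 without P1 replicate 1. All genes called, 48 with AB higher and 68 with P1 higher, became 52 with only present genes in the fit, 53 with edgeR's filterByExpr, and 71 to 534 with a library or pair left out. They were 77 without AB replicate 1, 534, 499 and 284 without P1 replicates 1, 2 and 3, 191 without AB replicate 3, and 532 and 71 without pairs 1 and 2. DESeq2 called 170. With the replicate block 91 were called, klc-1 had a log2 fold change of -0.66, and no call on a kinesin gene changed. The log2 fold change ranged over omissions from -0.49 to 1.03 for klp-7, from -0.29 to 0.15 for bmk-1, from -0.34 to 0.20 for unc-116 and from -0.011 to 0.13 for klc-2, and each of these changed direction. The causes of these changes of direction were not tested. The summed reads of klp-15 and klp-16 had a log2 fold change of -0.0098, beside 0.19 for klp-15 and -0.20 for klp-16 counted apart. The P1 minus AB difference in the ratio of unc-116 to the light chains kept its direction per length and with each library left out. With a library left out it ranged from 0.19 to 0.72. The ratios of klp-16 to klp-15 and of klc-1 to klc-2 kept their direction too. Their AB and P1 libraries do not overlap, so leaving out 1 library could not turn them, and length shifts every library alike. With 3 libraries a cell, no ratio could reach a p under 0.1, and the 95% intervals of the kinesin genes do not show equal levels in both cells.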
